A study of Mus musculus with 6 samples.

Results

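The genes of voltage-gated sodium and calcium channels were followed in nuclear RNA of cerebellar granule cells with and without a conditional knockout of Ezh1. The set held 39 genes, matched by symbol among the 24594 entries of the count table. No measured value of these libraries entered the rule for the set, but it was chosen with earlier results of these data known. Of the 39 genes, 19 encode pore-forming subunits, counting the sodium leak channel gene Nalcn, and 20 encode auxiliary subunits. All 39 were found, and 35 passed the filter on low counts, which left 13115 entries for testing. The other 4, Scn4a, Scn10a, Scn11a and Cacna1s, are described by their counts alone.

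Voltage-gated sodium channels open when the membrane depolarises and carry the upstroke of the action potential. Voltage-gated calcium channels turn depolarisation into calcium entry, which releases transmitter at terminals and shapes firing at the soma. In both families a large pore-forming subunit sets the voltage dependence, and smaller auxiliary subunits set trafficking and gating. Granule cells send thin parallel fibres to Purkinje cells, and mutations in several of these genes cause ataxia in mice or people.

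The libraries were 3 from homozygous Ezh1 conditional knockout mice (cKO) and 3 from mice homozygous for wild-type Ezh1 (WT). All were from cerebellum at 7 months of age, and both groups carried Neurod1-Cre, in which the Neurod1 gene drives Cre. Granule neurons use that gene, as do other excitatory neurons and endocrine cells. Ezh1 encodes a catalytic subunit of the Polycomb complex PRC2, which methylates lysine 27 of histone H3. Nuclei were fixed and sorted for the neuronal antigen NeuN, so the RNA is nuclear and holds unspliced transcripts. The labels give neither the exons removed by the cKO allele nor whether each library came from a separate animal, so part of the spread behind each p-value may be technical.

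The cKO libraries held 6340236 to 6827022 counts and the WT libraries 6682805 to 8284768, and the 39 genes took 0.632% to 0.707% of a library. Ezh1 had 365, 330 and 361 counts in cKO libraries against 470, 543 and 686 in WT libraries, with a log2 fold change of -0.53 ± 0.10 (SE, adjusted p = 0.00672). That call was lost without cKO library 1 (adjusted p = 0.0833) or WT library 3 (adjusted p = 0.115). The entry counts the whole gene, so RNA from outside a removed part would still be counted. Markers of granule cells summed to 5412 to 6510 CPM (counts per 1e+06) in cKO libraries and 5680 to 5787 CPM in WT libraries, those of Purkinje cells to 887 to 1058 and 879.7 to 1126 CPM. Of all marker lists tested, only that of granule cells held called genes, 1 higher (Neurod1) and 1 lower (Neurod2) in cKO libraries. Library 1 of each genotype had Xist at 831 CPM (cKO) and 811 CPM (WT), and the other libraries had 1.39 to 4.46 CPM. The summed Y-linked genes stood at 2.45 CPM (cKO) and 1.51 CPM (WT) in library 1 and at 123 to 148 CPM in the others, a difference as between female and male tissue. The labels give no sex.

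No channel gene passed the test between genotypes. Of the 35 tested, 0 were higher and 0 were lower in cKO libraries at an adjusted p below 0.05 (edgeR's quasi-likelihood test, Benjamini-Hochberg adjustment over all 13115 entries), where 0.32% of all entries were called higher and 0.259% lower. At an unadjusted p below 0.05 there were 7 (11.9% of all entries), 5 higher and 2 lower, where the shares over all entries were 5.8% and 6.05%. limma-voom called 0 of the 35 higher and 0 lower, where it called 0.175% of all entries higher and 0.145% lower. DESeq2 called 1 higher, Cacna1e, and 0 lower, where it called 0.435% higher and 0.442% lower, and it gave 14 of the 35 no adjusted p. In 6 genes every cKO library lay above every WT library, and in 3 every cKO library lay below, against 7.88% and 8.39% of all entries.

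Most of the tested genes were bounded closely. For 29 of 35 the 95% interval of the fold change lay within 2-fold in either direction, as it did for 81% of all entries, and for 23 it lay within 1.5-fold, against 54.5%. The 6 genes with intervals that reached past 2-fold were Scn3a, Scn4b, Cacna1f, Cacna1h, Cacng3 and Cacng5, which all averaged below 10 CPM. The log2 fold change was positive for 20 genes and negative for 15, with a median of 0.05, and the median over all entries was -0.01. Pore-forming genes had a median of -0.01 over the 15 tested and auxiliary genes 0.07 over 20. In bulk RNA, fewer cells of a type and less RNA per cell cannot be told apart.

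**Figure D1:**
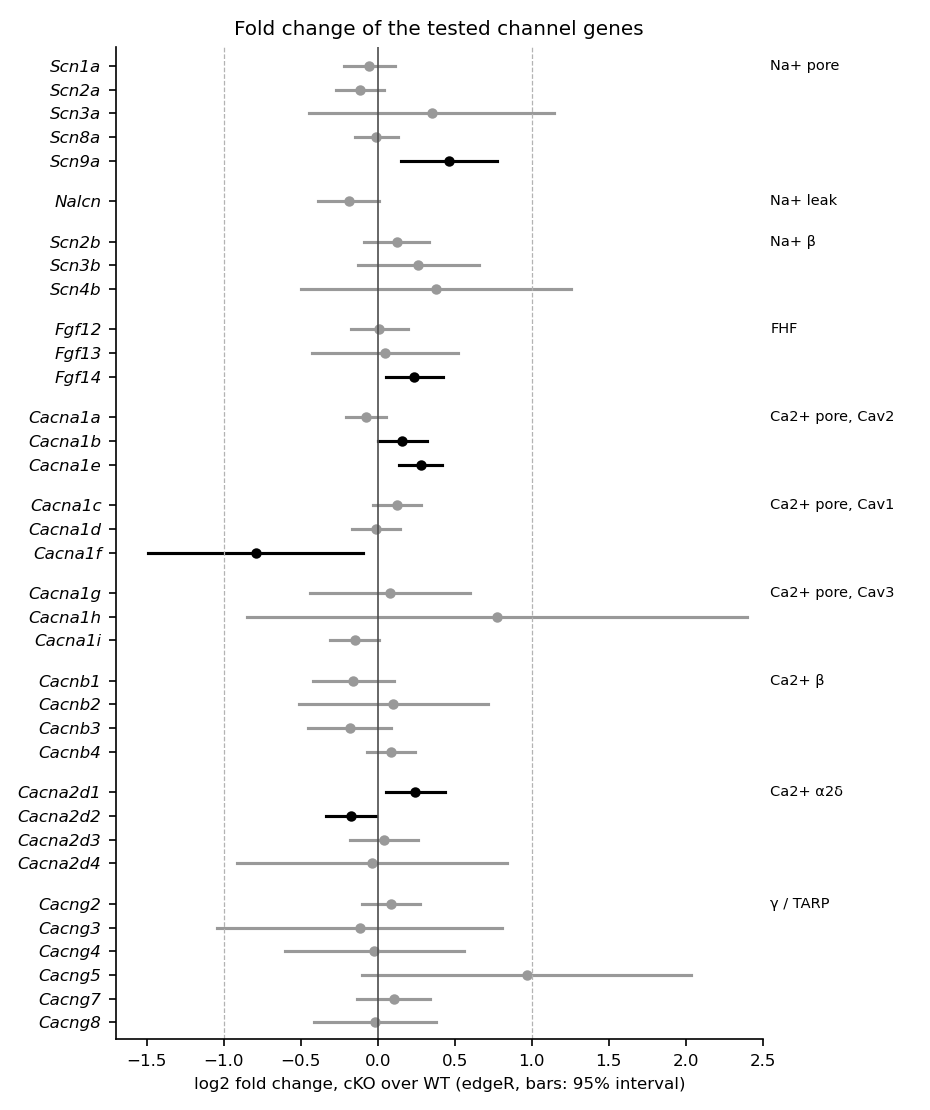
Log2 fold change of each of the 35 tested genes, cKO over WT, with its 95% interval from edgeR (n = 3 each), in order of subunit role. Black marks the 7 genes with an unadjusted p below 0.05, dashed lines mark a 2-fold change, and no gene passed after adjustment over 13115 entries.

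Levels between genes were compared per kilobase of summed exons. Cacna1a, the pore of the P/Q-type channel that triggers release at parallel fibre terminals, stood first at 182 CPM per kb (168 to 196 over the 6 libraries). Scn8a, the sodium channel of the axon initial segment, followed at 36.0 CPM per kb, and the ranges of these neighbours did not overlap. Fgf14 at 33.5, Cacna1e at 31.5, Scn2a at 30.4, Cacna1b at 30.0, Scn2b at 29.9 and Cacnb4 at 24.6 CPM per kb came next, and each overlapped its neighbour in this order. Further down, ranges of neighbours were apart between Cacnb4 and Cacna1d, Cacna1c and Cacng2, and Nalcn and Fgf13. At the bottom the ranges of Cacna1s (0.144 CPM per kb) and Scn4a (0.0229 CPM per kb) were barely apart, with both genes at 3 counts in WT library 3. Per kilobase of gene span, introns included, Scn2b came first at 11.4 CPM per kb, Cacna1a next at 6.91 and then Scn8a at 3.23. The order depended on the length used, and Fgf14 had rank 3 by exons and rank 22 by span.

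**Figure D2:**
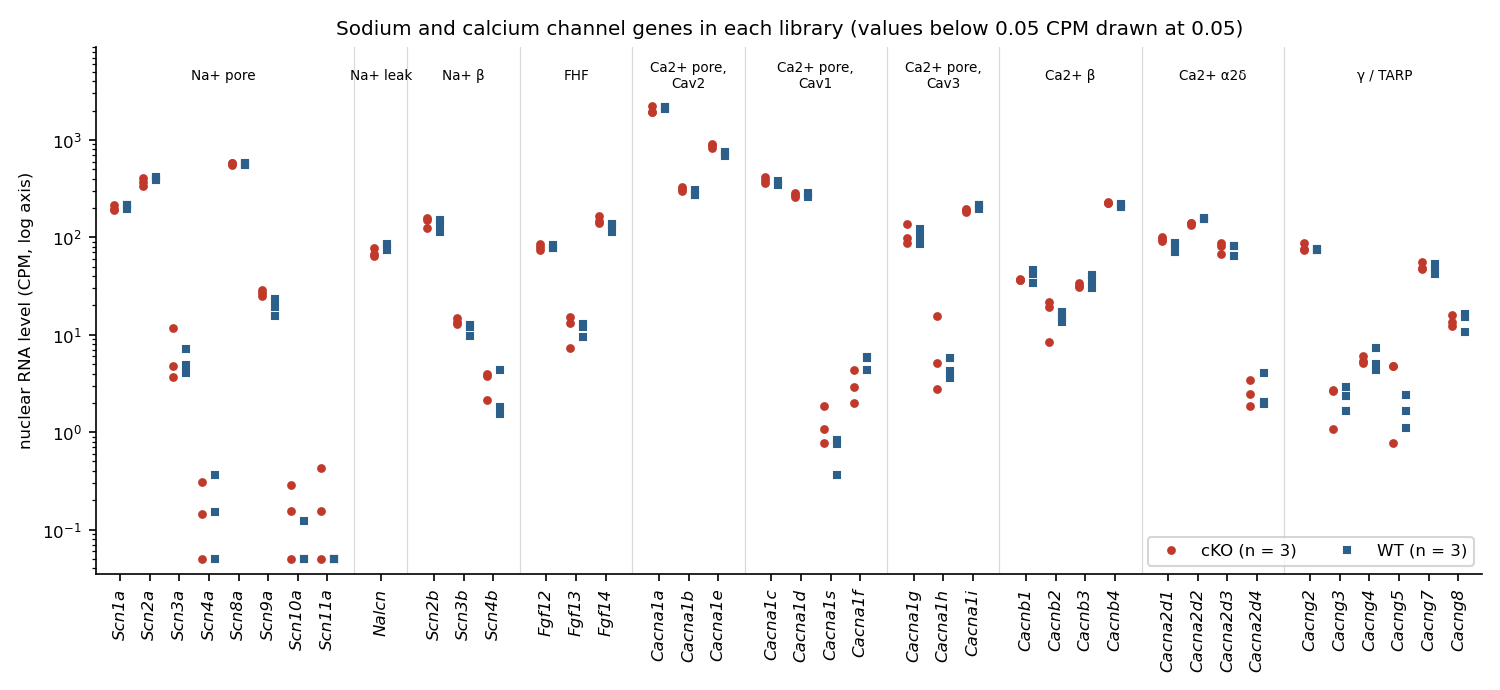
Nuclear RNA level in CPM (log axis) of all 39 genes in each of the 3 cKO libraries (circles) and 3 WT libraries (squares), grouped by subunit role, with values below 0.05 CPM drawn at 0.05. Cacna1a stands highest at 1919 to 2234 CPM, and Scn4a, Scn10a and Scn11a stand lowest.

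The start sites of the genes differed widely in their content of CG, a pair of letters at which mammalian DNA can be methylated. RefSeq's table for GRCm38.p6 held 32 of the 39 genes, and 28 of them had a start site within 1000 bases of the gene's 5′ end. In the 250 bases before that start the median number of CG was 9 (0 to 37), against 10 over 16667 genes of the whole table and 16 over the 9225 of these that were tested. At least 20 CG stood in 32.1% of the 28 and 23.2% of all genes. The 25 of the 28 that were tested had a median of 12, with at least 20 CG in 36.0% of them against 36.5% of the tested genes. To show pore-forming genes with many, a middling number and few CG, the bases before the gene's 5′ end are given 5′ to 3′ for 4 of them, with CG in capitals.
Cacna1b: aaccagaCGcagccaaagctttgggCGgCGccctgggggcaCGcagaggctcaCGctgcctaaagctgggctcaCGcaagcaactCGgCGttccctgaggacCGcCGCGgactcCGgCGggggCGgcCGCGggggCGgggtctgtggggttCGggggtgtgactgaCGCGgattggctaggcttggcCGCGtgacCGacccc
Cacna1i: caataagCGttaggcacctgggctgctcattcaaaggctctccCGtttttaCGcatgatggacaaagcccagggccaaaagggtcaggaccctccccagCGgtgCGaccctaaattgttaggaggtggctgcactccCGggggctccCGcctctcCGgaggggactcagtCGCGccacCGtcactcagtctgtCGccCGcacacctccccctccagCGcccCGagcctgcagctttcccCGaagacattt
Scn9a: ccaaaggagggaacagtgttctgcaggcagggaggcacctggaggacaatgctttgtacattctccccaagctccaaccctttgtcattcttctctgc
Scn2a: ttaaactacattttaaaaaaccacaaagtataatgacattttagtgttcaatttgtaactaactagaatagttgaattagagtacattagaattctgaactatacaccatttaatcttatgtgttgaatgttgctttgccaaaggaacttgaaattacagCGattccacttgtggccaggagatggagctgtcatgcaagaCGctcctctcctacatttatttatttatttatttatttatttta
The stretch of Cacna1b (chr2:24763201-24763402, minus strand) held 23 CG in 202 bases and that of Cacna1i (chr15:80286988-80287237, plus strand) 16 in 250. That of Scn9a (chr2:66635115-66635212, minus strand) held 0 in 98 bases and that of Scn2a (chr2:65620519-65620763, plus strand) 2 in 245. In the full 250 bases before the start site they held 29, 16, 5 and 2. These are descriptions of the reference sequence, and methylation was not measured here.

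Among the pore-forming sodium channels, Scn8a, Scn2a and Scn1a made up nearly all of the RNA per kilobase in both genotypes. Scn8a, whose loss causes ataxia and tremor in mice, had 575, 575 and 549 CPM in cKO libraries against 556, 572 and 582 CPM in WT libraries. The groups overlapped, and the log2 fold change of -0.01 had a 95% interval of -0.15 to 0.13 (adjusted p = 0.979). Scn2a, the channel of unmyelinated and young axons, had 368, 406 and 338 CPM in cKO libraries against 412, 408 and 387 CPM in WT libraries. These overlapped as well, with a log2 fold change of -0.12 ± 0.08 (SE, adjusted p = 0.599). Scn1a, known for its role in inhibitory neurons, averaged 201 ± 13.4 CPM in cKO libraries and 209 ± 10.1 CPM in WT libraries (SD, n = 3 each).

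Per kilobase, Scn8a held 41.9 ± 0.85% of the RNA of the 8 pore-forming sodium channel genes in cKO libraries and 40.9 ± 0.68% in WT libraries. Scn2a held 33.9 ± 1.97% in cKO libraries and 35.7 ± 1.37% in WT libraries, and Scn1a 21.0 ± 1.10% in cKO libraries and 21.2 ± 0.76% in WT libraries. The ratio of Scn2a to Scn8a counts was 0.641, 0.706 and 0.615 in cKO libraries against 0.741, 0.712 and 0.665 in WT libraries, and the groups overlapped. That of Scn1a to Scn8a averaged 0.355 ± 0.019 in cKO libraries and 0.366 ± 0.012 in WT libraries.

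Scn9a, best known from pain-sensing neurons, was a minor sodium channel here. It had 27.1, 24.7 and 28.5 CPM in cKO libraries against 19.2, 15.7 and 23.1 CPM in WT libraries. All 3 cKO libraries lay above all 3 WT libraries, with a log2 fold change of 0.46 ± 0.15 (SE, unadjusted p = 0.00522), which did not pass after adjustment (adjusted p = 0.183). Its span (chr2:66480080-66635114 of GRCm38.p6) overlaps the long noncoding RNA gene Gm13629, which had 18.3, 21.3 and 24.2 CPM in cKO libraries against 13.9, 18.7 and 16.4 CPM in WT libraries. Without stated strand use, reads of the overlapping stretch cannot be told apart, and the part of Gm13629 in the Scn9a values was not tested.

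The remaining sodium pores were near or below the limit of counting. Scn3a, a channel of embryonic neurons, had 11.7, 3.71 and 4.77 CPM in cKO libraries against 4.84, 7.11 and 4.01 CPM in WT libraries, and only cKO library 1 lay outside the WT range on the high side. Its log2 fold change was 0.35 with all libraries and -0.32 without cKO library 1. Scn4a of skeletal muscle had 7 counts in all 6 libraries together, and Scn10a and Scn11a of sensory neurons had 4 each. Scn11a had 3, 0 and 1 counts in cKO libraries and 0 in each WT library, where a count of 0 allows up to 3.

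Nalcn encodes the sodium leak channel, a related pore that is not gated by voltage in the usual sense and sets the resting potential. It had 67.5, 78.4 and 64.8 CPM in cKO libraries against 84.9, 74.3 and 81.0 CPM in WT libraries. The groups overlapped through cKO library 2, for a log2 fold change of -0.19 ± 0.10 (SE, adjusted p = 0.457). Of its complex, Unc79 gave 0.14 on the log2 scale (adjusted p = 0.556) and Unc80 gave -0.02 (adjusted p = 0.946). Nalf1 and Nalf2 were not analysed here.

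All 3 sodium beta subunit genes had positive log2 fold changes, and none had an unadjusted p below 0.05. Scn2b, the most abundant and a subunit bound to the pore by a disulphide bond, had 149, 159.5 and 126 CPM in cKO libraries against 152, 115 and 133 CPM in WT libraries. Its groups overlapped (log2 fold change 0.12 ± 0.10, SE, adjusted p = 0.689). Scn3b lay higher in every cKO library, at 12.9 to 14.8 CPM against 9.61 to 12.6 CPM in WT libraries, with an adjusted p of 0.644. Scn4b, the subunit of resurgent current in Purkinje cells, averaged 3.30 ± 1.00 CPM in cKO libraries and 2.58 ± 1.57 CPM in WT libraries (SD, n = 3 each).

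The FGF homologous factors are intracellular proteins that bind the tail of sodium channels and slow their inactivation. Fgf14, whose mutation causes a spinocerebellar ataxia in people, was the most abundant of the 3. It had 141, 167 and 148 CPM in cKO libraries against 138, 114 and 134 CPM in WT libraries. Every cKO library lay above every WT library, by a narrow margin between cKO library 1 and WT library 1, and the log2 fold change was 0.24 ± 0.09 (SE, unadjusted p = 0.0136, adjusted p = 0.266). The 3′ part of its span (chr14:123974441-124677686, minus strand) overlaps Itgbl1, which had 83, 40 and 33 counts in cKO libraries against 42, 32 and 39 in WT libraries. Fgf12 and Fgf13 had log2 fold changes of 0.01 and 0.05.

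**Figure D3:**
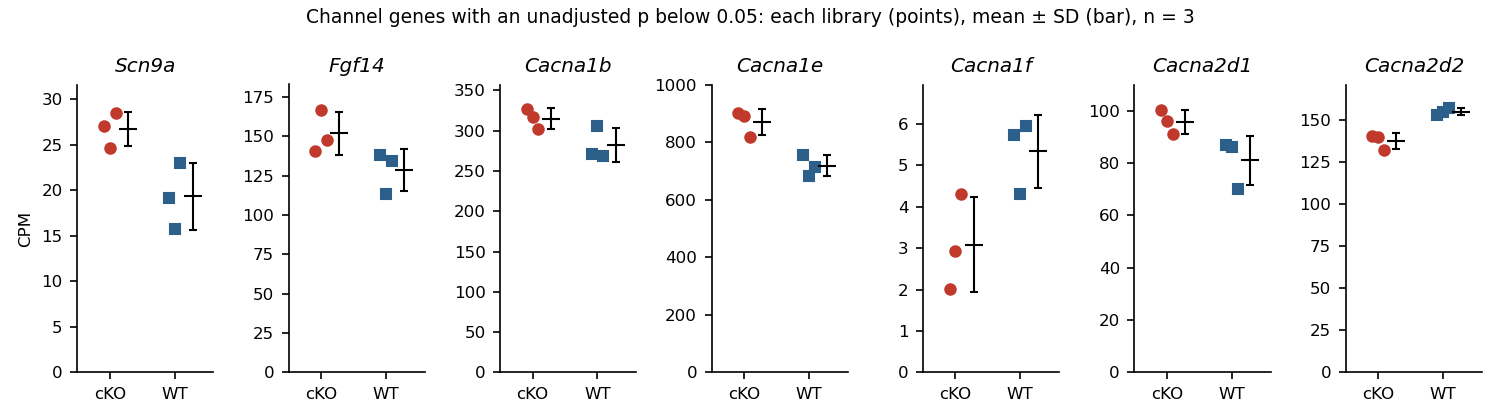
CPM of the 7 genes with an unadjusted p below 0.05 in each library (points), with mean ± SD beside them (n = 3 each), cKO left of WT, on axes from 0. Cacna1b is the only 1 of the 7 whose cKO and WT libraries overlap, and none of the 7 passed after adjustment.

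Among calcium channels of the P/Q, N and R types, Cacna1e and Cacna1b had positive log2 fold changes and Cacna1a a negative one, and none of the 3 passed the test. Cacna1a had 1919, 2234 and 1937 CPM in cKO libraries against 2063, 2184 and 2165 CPM in WT libraries. The groups overlapped, and the interval of its log2 fold change ran from -0.20 to 0.06 around -0.07 (adjusted p = 0.706). Cacna1b, the pore of the N-type channel of nerve terminals, had 327, 317 and 302 CPM in cKO libraries against 271, 306 and 269 CPM in WT libraries. WT library 2 overlapped the cKO range (log2 fold change 0.16 ± 0.08, SE, unadjusted p = 0.0485, adjusted p = 0.416).

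Cacna1e, the pore of the R-type channel, came nearest to the threshold of all 35. It spans 494 kb (chr1:154390806-154884785, minus strand) and had 6268, 5766 and 5327 counts in cKO libraries against 5002, 4908 and 5889 in WT libraries. Scaled to library size, these were 902, 890.4 and 819.9 CPM in cKO libraries against 756, 684 and 715 CPM in WT libraries. All 3 cKO libraries lay above all 3 WT libraries, with means of 871 ± 44.4 CPM in cKO libraries and 718 ± 36.1 CPM in WT libraries (SD, n = 3 each). The fold change was 1.21, with a 95% interval of 1.10 to 1.34, a log2 value of 0.28 ± 0.07 (SE) and an adjusted p of 0.0539.

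Over the 14 alternatives the log2 fold change of Cacna1e stayed between 0.24 and 0.32, and its adjusted p ran from 0.00791 to 0.299. It was below the threshold of 0.05 with scaling to library size alone (0.0254), without the 4 largest entries (0.0454), with no filter on low counts (0.0140), in DESeq2 (0.00791) and without WT library 1 (0.0254). These settings called 0.526%, 0.336%, 0.706%, 0.435% and 0.865% of all entries higher, in the same order. Leaving out cKO library 1 gave an adjusted p of 0.274, leaving out WT library 2 gave 0.299 and leaving out WT library 3 gave 0.254. Without library 1 of both genotypes it was 0.195, where 0.174% of all entries were called higher, and with a replicate block 0.0846, where 0.374% were.

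Within a library, the counts of one channel gene over another do not depend on library size. Of 7 ratios formed after the values were seen, and given here with no test, the groups were apart in 4 (Cacna1e and Cacna1b over Cacna1a, Cacna2d1 over Cacna2d2, and Scn9a over Scn2a). They overlapped for Scn2a and Scn1a over Scn8a and for Fgf14 over Fgf12. The share of all gene pairs that lie apart was not computed, so the count of 4 has no background. Cacna1e, Cacna2d1 and Scn9a were themselves higher in every cKO library, so their ratios add little to the values of the single genes. Cacna1e over Cacna1a was 0.470, 0.398 and 0.423 in cKO libraries against 0.366, 0.313 and 0.330 in WT libraries. Cacna1b over Cacna1a was 0.170, 0.142 and 0.156 in cKO libraries against 0.131, 0.140 and 0.124 in WT libraries, close to touching at cKO library 2 and WT library 2. Per kilobase, Cacna1a held 72.8 ± 1.72% of the RNA of the 3 genes in cKO libraries and 76.7 ± 0.73% in WT libraries (SD, n = 3 each), and Cacna1e 14.2 ± 0.85% in cKO libraries and 11.7 ± 0.86% in WT libraries.

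**Figure D4:**
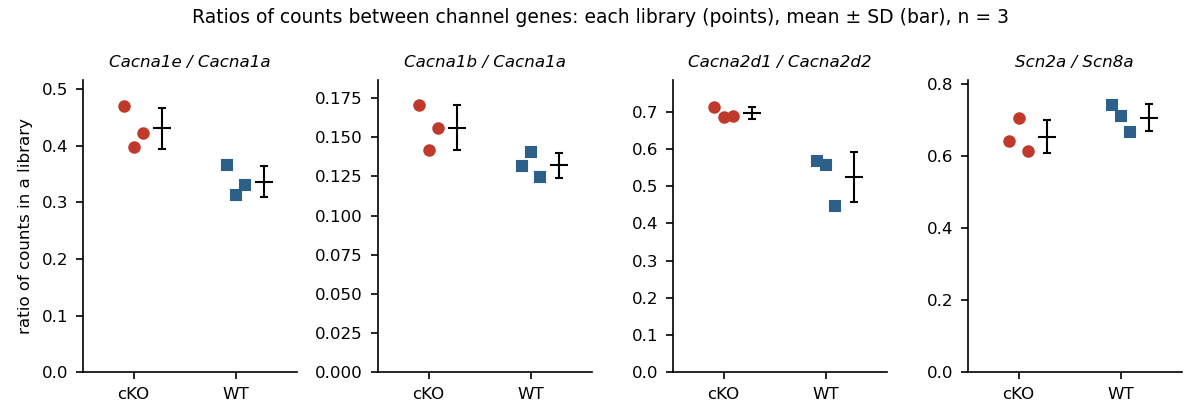
Ratio of counts between pairs of channel genes in each library (points), with mean ± SD (n = 3 each), cKO left of WT, on axes from 0. The groups are apart for Cacna1e over Cacna1a, Cacna1b over Cacna1a and Cacna2d1 over Cacna2d2, and they overlap for Scn2a over Scn8a. The pairs were formed after the values were seen, and Cacna2d1 over Cacna2d2 had to be apart from the values of its 2 genes.

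The L-type channels, which link calcium entry to gene transcription in neurons, were carried by Cacna1d and Cacna1c. Cacna1c, the L-type pore of heart and brain, had 366, 419.6 and 389.5 CPM in cKO libraries against 349.5, 348 and 379 CPM in WT libraries. cKO library 1 lay within the WT range, for a log2 fold change of 0.13 ± 0.08 (SE, adjusted p = 0.547). Its span shares its 5′ part with Dcp1b, which had 226, 241 and 235 counts in cKO libraries against 197, 176 and 224 in WT libraries. Cacna1d averaged 271 ± 10.8 CPM in cKO libraries and 273 ± 13.7 CPM in WT libraries (SD, n = 3 each).

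Cacna1f, the L-type pore of photoreceptor terminals, was scarce. It had 14, 19 and 28 counts (2.01, 2.93 and 4.31 CPM) in cKO libraries against 38, 31 and 49 counts (5.74, 4.32 and 5.95 CPM) in WT libraries. All cKO libraries lay below all WT libraries, with cKO library 3 and WT library 2 almost level, and the log2 fold change was -0.79 ± 0.34 (SE, unadjusted p = 0.0269, adjusted p = 0.339). Its interval of -1.49 to -0.10 was among the widest of the set. Cacna1s of skeletal muscle had 39 counts in all 6 libraries.

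Of the T-type channels, which open near the resting potential, Cacna1i was the most abundant. It had 181, 195 and 189.6 CPM in cKO libraries against 196, 214 and 217 CPM in WT libraries. The cKO libraries all lay below the WT libraries, with cKO library 2 and WT library 1 almost level, for a log2 fold change of -0.15 ± 0.08 (SE, adjusted p = 0.466). Cacna1g, which Purkinje cells also express strongly, had 136, 88.3 and 99.4 CPM in cKO libraries against 123, 101 and 84.5 CPM in WT libraries. Library 1 was the highest of its genotype in both. The Purkinje marker list was likewise highest in library 1 of both, at 1058, 887 and 940.1 CPM in cKO libraries against 1126, 879.7 and 924 CPM in WT libraries, and its part in the Cacna1g values was not tested.

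Cacna1h, a scarcer T-type pore, stood apart in 1 library. It had 15.5, 2.78 and 5.08 CPM in cKO libraries against 4.23, 3.62 and 5.83 CPM in WT libraries. That was cKO library 1, and the log2 fold change of 0.77 became -0.22 without it. Camk2a, of the calcium channel partner list, had 27.5, 4.94 and 10.9 CPM in cKO libraries against 12.4, 7.11 and 7.28 CPM in WT libraries. The relation of Camk2a to Cacna1h was not tested. cKO library 1 was the highest of the 6 for 10 of the 35 genes. Without it the median log2 fold change of the 35 was -0.02, 17 were positive, and 4 had an unadjusted p below 0.05. With another library left out, that last number ran from 3 (without WT library 3) to 10 (without cKO library 2). The shares over all entries were not computed for these settings or for the highest library.

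The calcium beta subunits bind the pore from inside and bring it to the membrane. Cacnb4, mutated in the lethargic mouse, had 231, 226 and 224 CPM in cKO libraries against 216, 222 and 205 CPM in WT libraries. The groups were apart by a small step (log2 fold change 0.08 ± 0.08, SE, adjusted p = 0.725). Cacnb1 and Cacnb3 had log2 fold changes of -0.16 and -0.18, and Cacnb2 of 0.10, which was -0.16 without cKO library 1. Per kilobase of summed exons, Cacnb4 held 59.5 ± 1.01% of the beta subunit RNA in cKO libraries and 55.6 ± 3.54% in WT libraries (SD, n = 3 each), with overlapping ranges. Per kilobase of gene span Cacnb4, at 0.888 CPM per kb, came after Cacnb3 at 2.11 and Cacnb1 at 1.80. Cacnb2 was the lowest by both lengths.

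The alpha2delta subunits are membrane proteins that raise the number of channels at the surface, and Cacna2d1 and Cacna2d2 bind the drug gabapentin. These 2 genes had fold changes of opposite sign. Cacna2d1 had 100.3, 96.0 and 91.1 CPM in cKO libraries against 86.9, 86.2 and 70.3 CPM in WT libraries. Every cKO library lay above every WT library (log2 fold change 0.24 ± 0.09, SE, unadjusted p = 0.0152, adjusted p = 0.275). Cacna2d2, mutated in the ataxic ducky mouse, had 141, 139.9 and 132 CPM in cKO libraries against 153, 155 and 157 CPM in WT libraries. Every cKO library lay below every WT library (log2 fold change -0.17 ± 0.08, SE, unadjusted p = 0.0387, adjusted p = 0.386).

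The ratio of Cacna2d1 to Cacna2d2 counts was 0.713, 0.687 and 0.688 in cKO libraries against 0.568, 0.556 and 0.447 in WT libraries. With Cacna2d1 higher and Cacna2d2 lower in every cKO library, the groups had to be apart, and the ratio adds no separate result. Per kilobase of summed exons, Cacna2d2 held 50.5 ± 1.59% of alpha2delta RNA in cKO libraries and 55.7 ± 1.42% in WT libraries. Cacna2d1 held 22.5 ± 1.20% in cKO libraries and 18.7 ± 2.24% in WT libraries (SD, n = 3 each). These shares depend on the length used, and by gene span Cacna2d2 stood at 1.13 and Cacna2d1 at 0.201 CPM per kb. Cacna2d3 averaged 78.5 ± 10.4 CPM in cKO libraries and 76.1 ± 10.0 CPM in WT libraries, and Cacna2d4, a retinal subunit, 2.59 ± 0.81 CPM in cKO libraries and 2.70 ± 1.20 CPM in WT libraries.

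The gamma subunit genes of the set encode proteins that mostly act as regulators of AMPA receptors. Cacng2 encodes stargazin, without which granule cells lack AMPA receptors at their synapses. It had 86.9, 76.6 and 74.0 CPM in cKO libraries against 76.0, 74.1 and 73.8 CPM in WT libraries. The groups overlapped (log2 fold change 0.09 ± 0.09, SE, adjusted p = 0.772). Per kilobase of summed exons, Cacng7 and Cacng2 held most of the RNA of the 6 genes. Cacng7 held 46.9 ± 0.74% in cKO libraries and 46.3 ± 4.74% in WT libraries. Cacng2 held 32.5 ± 0.77% in cKO libraries and 32.5 ± 0.95% in WT libraries. Per kilobase of gene span Cacng7 was again first at 1.35 CPM per kb. Cacng8 (0.629) and Cacng2 (0.599) followed with overlapping ranges. Cacng5 had the highest log2 fold change of the set, 0.97 with an interval of -0.10 to 2.04, on 33, 5 and 31 counts in cKO libraries against 11, 8 and 20 in WT libraries. The groups overlapped through cKO library 2. Cacng3, Cacng4, Cacng7 and Cacng8 had log2 fold changes of -0.12, -0.02, 0.10 and -0.02, all with overlapping groups.

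Of 57 genes matched for scaffolds, partners and related channels, 50 were tested and 1 passed, where 0.579% of all entries did. These lists were drawn up with earlier results of these data known, so the 2 rates cannot be compared as for a blind list. Ahnak, a giant scaffold protein that binds calcium channel beta subunits, fell to 10.2, 13.4 and 13.9 CPM in cKO libraries, against 20.4, 26.1 and 25.7 CPM in WT libraries. All cKO libraries lay below all WT libraries (log2 fold change -0.95 ± 0.17, SE, adjusted p = 0.00456). The call was lost without cKO library 1 (adjusted p = 0.102), WT library 2 (0.0583) or WT library 3 (0.0832). The 50 genes had a median log2 fold change of -0.04 and 20 were positive.

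The axon initial segment is where sodium channels are anchored. Of its 10 scaffold genes none passed, and the smallest p were those of Trim46 and Nfasc. Trim46, which organises the microtubules there, had 42.4, 49.9 and 34.6 CPM in cKO libraries against 56.2, 53.8 and 55.1 CPM in WT libraries (log2 fold change -0.38, adjusted p = 0.160). Nfasc, an adhesion molecule of the segment, had 554, 534 and 584 CPM in cKO libraries against 489, 459 and 496 CPM in WT libraries (log2 fold change 0.21, adjusted p = 0.185). In both, named for their small p, the groups were apart, in opposite directions. Of the 10, every cKO library lay above every WT library in 1 (Nfasc) and below in 3 (Trim46, Ank1 and Cntn1). The shares over all entries were 7.88% and 8.39%.

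Of 7 genes listed as sodium channel partners, Tnr, an extracellular matrix protein that binds beta subunits, had the smallest p. It had 82.9 ± 7.75 CPM in cKO libraries and 68.4 ± 2.33 CPM in WT libraries (SD, n = 3 each, adjusted p = 0.195). The 7, and so the 57 matched, count Nav1, a neuron navigator gene that shares only a name with the sodium channels. Of 7 tested other voltage-dependent cation channels none passed, and Hcn3, a channel of the hyperpolarisation-activated current, stood at 0.28 on the log2 scale (adjusted p = 0.669).

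Channel genes are long, with a median span of 130 kb for the 35 tested against 24.5 kb for the 13080 other tested entries, and fold changes in these libraries varied with span. The channel genes had medians of -0.02 (n = 7) below 30 kb, 0.09 (n = 6) from 30 to 100 kb, -0.01 (n = 11) from 100 to 300 kb and 0.05 (n = 11) over 300 kb. The other entries had medians of -0.03, 0.00, 0.05 and 0.07 in the same classes, and 44.7%, 50.9%, 59.3% and 62.5% of them were positive. Cacna1e, Fgf14 and Cacna2d1 were all over 300 kb, where the quartiles of other entries were -0.06 and 0.21. Their log2 fold changes of 0.28, 0.24 and 0.24 lay above the upper quartile, but they were named for an unadjusted p below 0.05. The other channel genes over 300 kb lay below that quartile, from -0.19 (Nalcn) to 0.13 (Cacna1c). The part of gene span in these values was not tested.

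**Figure D5:**
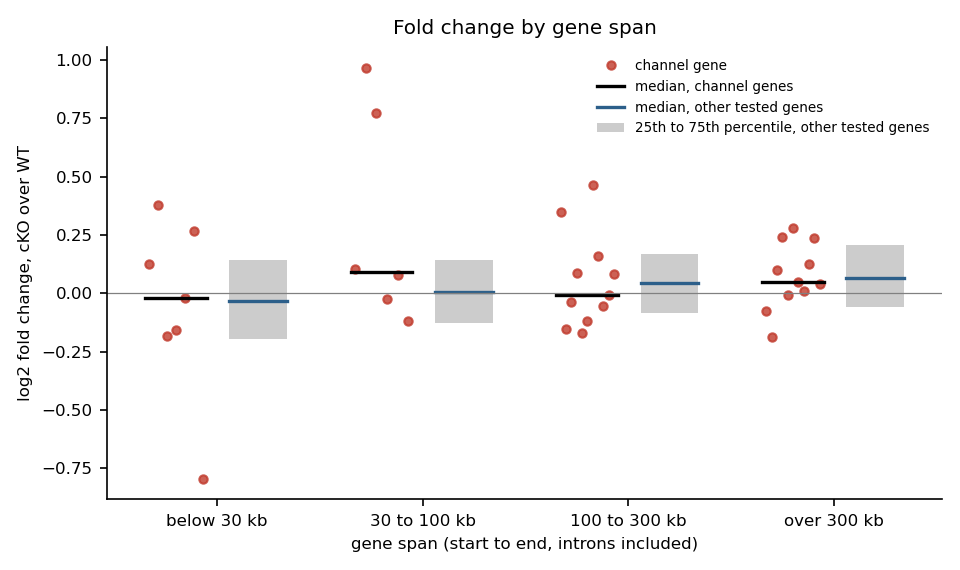
Log2 fold change, cKO over WT, of the 35 tested channel genes (points) in 4 classes of gene span, introns included, with their median (black line) beside the median (blue line) and the quartiles (grey box) of the 13080 other tested entries. Over 300 kb the median is 0.05 for the channel genes and 0.07 for the other entries, and below 30 kb it is -0.02 and -0.03.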

How the data were processed

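Nuclear RNA of NeuN-sorted cerebellar nuclei was sequenced in 6 libraries. The authors deposited 1 table of whole-number counts per entry, not normalized. Subread and the mm10 genome are named in the submitters' processing notes. With the version, annotation, strand use and handling of multi-mapping reads not given in the sources used here, reads of overlapping genes cannot be told apart. Of 24594 entries, 24570 matched RefSeq's GRCm38.p6 by gene identifier, and 23954 had exon lengths in GENCODE M21. Libraries held 6340236 to 8284768 counts, and 1 unmatched entry took 26.0% of all counts. No 2 libraries of a genotype agreed within sampling noise.

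Counts were tested in R 4.3.3 with edgeR 4.0.16 (filterByExpr with a minimum count of 10, TMM factors, robust glmQLFit and glmQLFTest, genotype as the only term, Benjamini-Hochberg over 13115 entries, calls below 0.05). CPM are counts per 1e+06 of a library's total and TMM factor. Errors are SD over 3 libraries or SE of the fit. Alternatives used DESeq2 1.42.0, limma 3.58.1, other scalings, no filter, a replicate block and left-out libraries. The procedure was checked on simulated data. Members, lists, ratios and alternatives were chosen with earlier results of these data known. Values per library are given for genes with an unadjusted p below 0.05, the 5 of highest CPM and the most abundant of each class. Of partners, those called are named, or the 2 of smallest p of a list with none. A few partners so picked are not reported here. Camk2a, Cacna1h and other genes outside that rule were named after their values were seen.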

Additional observations from a re-analysis of the deposited data

How the results depend on the processing

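No channel gene was called lower under any of the 14 alternatives, and the only gene called higher in any was Cacna1e. The count of channel genes called higher was 1 with scaling to library size alone, without the 4 largest entries, with no filter and in DESeq2, and 0 to 1 with 1 library left out. Partner genes called lower numbered 0 in DESeq2, which gave Ahnak no adjusted p, and 0 to 2 with 1 library left out. Of all entries, 69 were called higher with library size alone, 146 higher and 131 lower with no filter, 58 lower in DESeq2, 23 higher and 19 lower in limma-voom, and 23 higher and 20 lower without replicate 1 of both genotypes. With 1 library left out they numbered 10 to 116 higher and 3 to 133 lower, and the Ezh1 log2 fold change was -0.58 to -0.47. The labels do not say that replicate numbers mark a shared litter or day, and deviations of same-numbered libraries correlated at 0.15, 0.01 and -0.04, so the numbers were not taken as pairs. Only library 1 of each genotype, both high in Xist, correlated best with its own number. With a replicate block 0 channel genes and 1 partner gene were called, with 49 entries higher and 41 lower. Scaling to library size alone moved the median log2 fold change of the 35 genes to 0.08, of which 24 were then positive, and that of all entries to 0.03. The 6 genes whose intervals reached past a 2-fold change had 95 to 261 counts over all 6 libraries.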
